A study of Rattus norvegicus with 20 samples.

Results

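Blood RNA from male Wistar rats carried transcripts of 10 genes of the red cell lineage, 9 of them with signals above the median of the array, although red cells had been lysed before RNA extraction. The 10 genes, Alas2, Slc4a1, Epb42, Klf1, Gata1, Hbb, Ahsp, Hemgn, Bpgm and Ank1, were chosen by name, and every probe set whose platform annotation gives 1 of these symbols and no other was followed. These were 14 of the 31042 probe sets on the Affymetrix rat genome array used, of which 20826 carry 1 gene symbol. The 20 arrays held blood of the same 10 rats drawn 2 times. The groups were susceptible rats after acetaminophen (APAP, group SA), susceptible rats before it (S), resistant rats after APAP (RA) and resistant rats before it (R), with 5 arrays each. Postdose blood was drawn 24 h after rats that had fasted for 12 h received 1200 mg/kg APAP by mouth, and the dose followed the predose blood by 1 week. Susceptible and resistant rats were the 5 with the highest and the 5 with the lowest serum alanine transaminase among 35 dosed rats, so that the sub-groups are the ends of 1 ranking. The ages of the rats are not given in the labels. All postdose arrays came from rats dosed after the 12 h fast, which by the methods ended 2 h after the dose. None of the 20 arrays is from a rat given vehicle. Drug, fasting, day and bleeding therefore cannot be told apart in a postdose minus predose difference. The labels give the retro-orbital plexus as the bleeding site for both times, whereas the methods give the inferior vena cava for the postdose blood.

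Red cells arise in bone marrow from nucleated erythroblasts, which load themselves with hemoglobin, lose their nucleus and enter the blood as reticulocytes. Reticulocytes still hold messenger RNA and lose it as they mature, so that erythroid messages in blood come mainly from these young cells. The transcription factors Gata1 and Klf1 switch on the genes for globin, heme synthesis and the red cell membrane during this process. In whole blood RNA, fewer cells of a type and less RNA per cell cannot be told apart.

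The 11 probe sets of 9 genes, all but Ank1, stood above the median signal on all 20 arrays. Signals are given here as log2 intensity with the median of every array set to 1000, or 9.97 on the log2 scale. Hbb, a beta chain of hemoglobin, lay between 17.67 and 18.56 on all 20 arrays, where the highest signal of any probe set lay between 18.64 and 19.33. Signals this close to the top of the scale may be compressed, and this was not tested. Alas2, the first enzyme of heme synthesis in red cells, lay between 16.93 and 18.01. Bpgm, which makes the 2,3-bisphosphoglycerate that lowers the oxygen affinity of hemoglobin, lay between 17.36 and 18.36 at its brighter probe set. Slc4a1, the anion exchanger band 3, lay between 15.85 and 17.42 at its brighter probe set. The probe sets of 9 genes were above the highest of the 3 control probe sets for bacterial trp genes (5.13 to 8.12) on all 20 arrays. The 3 probe sets of Ank1 averaged 10.55, 10.05 and 8.49 over the 20 arrays, around or below the array median. Ank1 encodes the ankyrin that ties band 3 to the cytoskeleton. Of its probe sets, 2 were above the highest trp control on all 20 arrays and the dimmest on 17. Levels of different probe sets cannot be ranked against each other on arrays of this kind, so each gene is compared only with itself.

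Transcripts of other blood cells were present too. Pf4, a platelet chemokine, lay between 18.39 and 19.21. S100a9 of neutrophils lay between 18.22 and 19.23, Lyz2 of monocytes between 17.99 and 18.78, Cd3g of T cells between 16.73 and 17.38, Ms4a1 of B cells between 15.04 and 15.97, and Prf1 of NK and cytotoxic T cells between 16.15 and 17.68. The samples are therefore mixed blood by their markers, as labelled.

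The genes lie on 8 chromosomes of the GRCr8 assembly. Alas2 spans chrX:22890650-22914046 and Gata1 chrX:17193291-17209462. Hbb lies at chr1:167662310-167663721 and Ahsp at chr1:192310306-192315943. Epb42 spans chr3:128433460-128451683, Bpgm chr4:64106809-64135749, Hemgn chr5:65475228-65495384, Slc4a1 chr10:87807010-87823274, Ank1 chr16:75578824-75757464 and Klf1 chr19:40155476-40158651. These are whole gene spans, and the positions of the probe sets within them are not given in the sources used here.

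Promoter sequence was looked at because these genes, all but Hbb, moved together from array to array, as described further on. RefSeq windows of 250 bases before a transcript start were found for 7 of the 10 genes, and for 3 of them, Klf1, Epb42 and Hbb, the window ended at the outer start of the annotated gene. These 3 are shown 5′ to 3′ on the strand of the gene in the GRCr8 build. Klf1 is at chr19:40158652-40158901, Epb42 at chr3:128451684-128451933 and Hbb at chr1:167663722-167663971, all on the minus strand. Capitals mark matches on either strand to the letters that GATA factors bind (GATA with A or T before it and A or G after it) or to the CACC-type letters CCNCNCCC that Klf1 and related factors bind.
Klf1: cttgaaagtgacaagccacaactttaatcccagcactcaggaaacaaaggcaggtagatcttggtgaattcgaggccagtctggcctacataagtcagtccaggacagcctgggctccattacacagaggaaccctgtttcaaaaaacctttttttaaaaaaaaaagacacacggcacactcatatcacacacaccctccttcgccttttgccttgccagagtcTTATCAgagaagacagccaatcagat
Epb42: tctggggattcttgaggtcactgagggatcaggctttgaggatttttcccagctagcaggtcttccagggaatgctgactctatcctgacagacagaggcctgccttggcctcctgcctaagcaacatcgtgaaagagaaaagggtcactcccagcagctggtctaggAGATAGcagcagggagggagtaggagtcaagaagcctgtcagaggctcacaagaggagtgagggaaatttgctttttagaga
Hbb: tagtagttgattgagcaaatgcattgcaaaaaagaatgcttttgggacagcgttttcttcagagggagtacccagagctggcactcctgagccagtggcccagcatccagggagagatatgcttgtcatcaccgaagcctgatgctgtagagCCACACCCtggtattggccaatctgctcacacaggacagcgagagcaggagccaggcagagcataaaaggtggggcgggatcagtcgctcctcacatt
The Klf1 window held 1 GATA match, on the opposite strand, from 26 to 21 bases before the start. The Epb42 window held 1, from 82 to 77 bases before the start. The Hbb window held no GATA match and 1 CACC-type match from 98 to 91 bases before the start, just upstream of 2 CCAAT matches. Among the windows not shown, that of Alas2 held 1 GATA match, that of Gata1 3 CACC-type matches and that of Bpgm 1. Of the 2 Hemgn windows, 1 held 1 CACC-type match and the other 2 GATA matches. Over all 33469 windows of the same length, 27.0% held a GATA match, 42.8% a CACC-type match and 34.0% a CCAAT match on either strand. A match is a run of letters and not a measured binding site.

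None of the 14 probe sets passed the test after APAP in either sub-group. In susceptible rats (SA against S), 0 of 14 were called higher and 0 lower (limma, threshold 0.05 on the adjusted p), where 6.66% of all 30747 probe sets tested were called. In resistant rats (RA against R) 0 of 14 were called in either direction, where 5.11% of all were called. At an unadjusted p under 0.05, 2 of the 14 passed in each sub-group, against 19.0% of all probe sets in susceptible and 17.1% in resistant rats. The median log2 difference of the 14 probe sets was 0.00 in susceptible rats, where that of all probe sets was 0.01, and -0.15 in resistant rats, where that of all was -0.01. The signs were mixed, with 8 differences above 0 and 6 below it in susceptible rats and 4 above and 10 below in resistant rats. No probe set had groups that did not overlap, whereas 6.83% of all probe sets had such groups in susceptible and 6.76% in resistant rats. A p that misses the threshold does not show that the levels were alike, and the 95% intervals of the differences reached as far as 1.72 log2 units from 0 in susceptible and 1.93 in resistant rats, both at the dimmest Ank1 probe set.

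**Figure D1:**
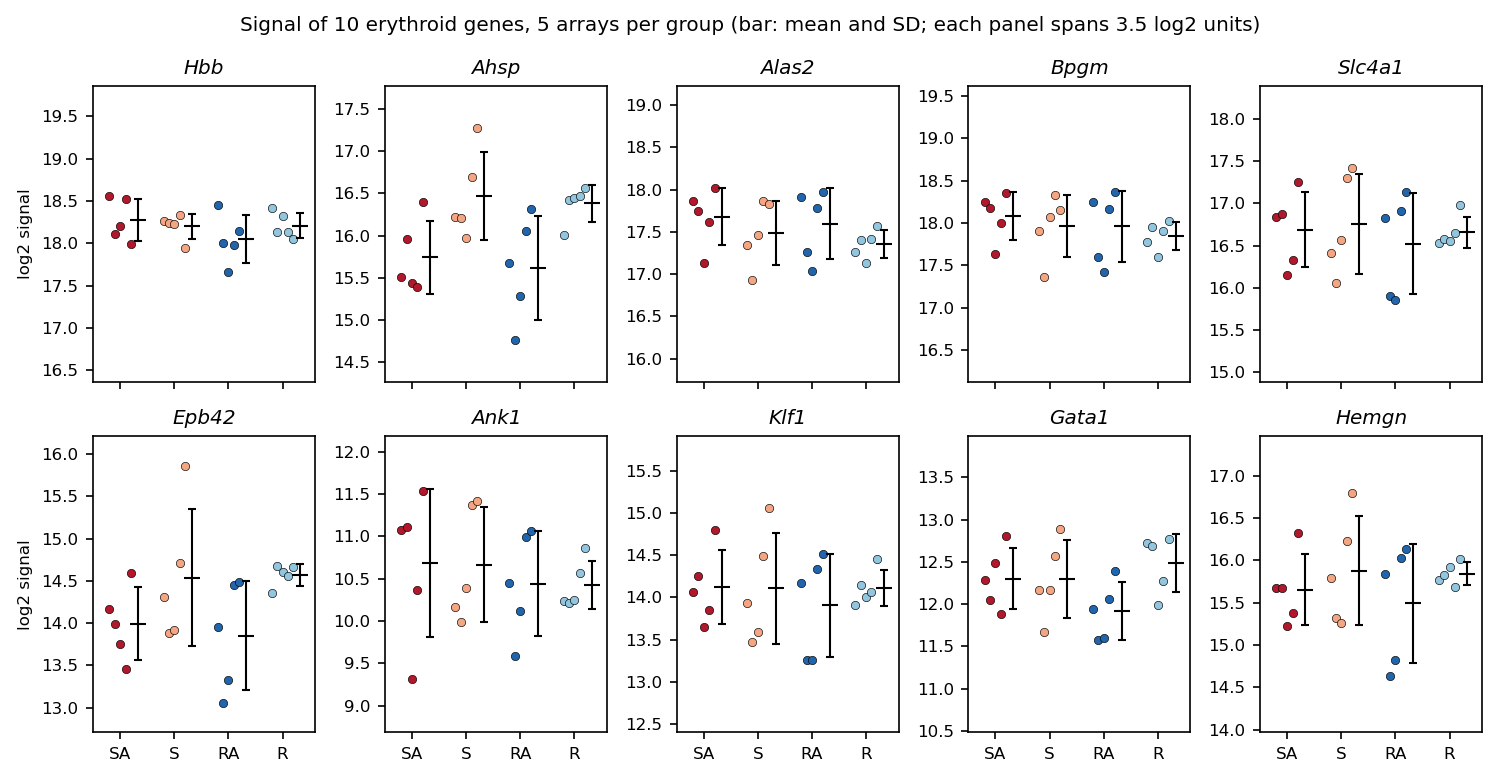
Log2 signal of each of the 10 genes (brightest probe set of the gene) on each array, by group in the order SA, S, RA, R. Points are arrays, bars give the mean and SD of 5 arrays, and every panel spans 3.5 log2 units, so that the small spread of Hbb (0.22 within groups) can be set against the larger spread of Epb42 (0.57).

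Ahsp had the lowest log2 difference of the genes in resistant rats and nearly the lowest in susceptible rats. Ahsp encodes alpha hemoglobin stabilizing protein, a chaperone that holds free alpha globin until it pairs with a beta chain. Its log2 signals were 15.51, 15.96, 15.44, 15.39 and 16.40 on the SA arrays, against 16.22, 16.20, 15.97, 16.69 and 17.27 on the S arrays. The groups overlapped through SA replicate 5, which was above the 3 lowest S arrays. On the RA arrays the signals were 15.67, 14.76, 15.28, 16.06 and 16.32, against 16.01, 16.41, 16.45, 16.47 and 16.57 on the R arrays. Here 2 RA arrays were above the lowest R array. The log2 difference was -0.73 ± 0.29 (SE, n = 5 and 5, as for every difference from limma) in susceptible rats, a ratio of 0.603, with an adjusted p of 0.164. In resistant rats it was -0.76 ± 0.29, a ratio of 0.589, with an adjusted p of 0.160. Both 95% intervals lay below 0 (from -1.34 to -0.12 and from -1.38 to -0.15), but neither difference passed after adjustment over all probe sets.

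Hbb, the partner chain of the alpha globin that Ahsp holds, had log2 differences nearer 0. It measured 18.56, 18.11, 18.21, 18.52 and 17.99 on the SA arrays, against 18.26, 18.24, 18.23, 18.33 and 17.95 on the S arrays. It measured 18.45, 18.00, 17.67, 17.99 and 18.14 on the RA arrays, against 18.41, 18.13, 18.33, 18.13 and 18.05 on the R arrays. The log2 differences were 0.08 ± 0.14 in susceptible rats (adjusted p = 0.842) and -0.16 ± 0.14 in resistant rats (adjusted p = 0.650). The groups overlapped almost wholly. Probe sets that the annotation assigns to several globin genes lie outside the rule. The 3 for Hba-a1 with Hba-a2 and the 2 for Hbbl1 with Hbb-bs had differences from 0.08 to 0.14 in susceptible and from -0.26 to -0.09 in resistant rats, and none was called.

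Alas2 had the highest log2 difference of the 14 probe sets in both sub-groups. Its signals were 17.87, 17.75, 17.13, 17.62 and 18.01 on the SA arrays, against 17.35, 16.93, 17.46, 17.86 and 17.83 on the S arrays. On the RA arrays they were 17.92, 17.27, 17.04, 17.78 and 17.97, against 17.26, 17.40, 17.13, 17.42 and 17.57 on the R arrays. In resistant rats 3 RA arrays were above every R array and 1 was below every R array. The log2 differences of 0.19 ± 0.21 (adjusted p = 0.703) and 0.24 ± 0.21 (adjusted p = 0.654) were close to their standard errors. Bpgm, at its brighter probe set, had 0.12 in susceptible and 0.11 in resistant rats, and at the other 0.15 and 0.20, with adjusted p from 0.799 to 0.860.

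Of the 3 membrane genes, Epb42 had the log2 differences farthest below 0 at the gene's brightest probe set. Epb42 encodes protein 4.2, which sits between band 3 and ankyrin at the inner face of the membrane. It measured 14.17, 14.00, 13.75, 13.46 and 14.60 on the SA arrays, against 14.31, 13.89, 13.92, 14.71 and 15.86 on the S arrays. It measured 13.95, 13.06, 13.33, 14.45 and 14.49 on the RA arrays, against 14.36, 14.67, 14.61, 14.55 and 14.67 on the R arrays. The R arrays lay close together, whereas the RA arrays were spread out and 2 of them lay within the range of the R arrays, and S replicate 5 was the highest of all 20. The differences were -0.54 ± 0.35 in susceptible rats (adjusted p = 0.444) and -0.72 ± 0.35 in resistant rats (adjusted p = 0.305). Slc4a1 had -0.06 ± 0.30 and -0.13 ± 0.30 at its brighter probe set, and 0.00 and -0.11 at the other.

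The 3 probe sets of Ank1 disagreed with each other. The brightest, 1389398_at, had a log2 difference of 0.02 in susceptible and 0.01 in resistant rats, whereas 1395046_at had -0.75 and -0.15. At 1395046_at the signals were 10.25, 9.69, 8.78, 8.92 and 10.65 on the SA arrays, against 10.15, 10.05, 10.21, 10.43 and 11.16 on the S arrays. Only 2 SA arrays reached into the range of the S arrays, and the adjusted p was 0.218. The dimmest, 1397805_at, had -0.34 and -0.54 with a standard error of 0.66, and it was the one that fell to the level of the controls on some arrays.

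Of the 2 DNA-binding regulators, Gata1 had a log2 difference away from 0 in resistant rats alone. Gata1 is the master regulator of red cells and megakaryocytes. Its signals were 11.94, 11.58, 11.60, 12.06 and 12.40 on the RA arrays, against 12.72, 12.69, 11.99, 12.28 and 12.77 on the R arrays. Among the RA arrays, 2 were above the lowest R array, and the difference was -0.57 ± 0.24 with an adjusted p of 0.205. In susceptible rats the signals were 12.29, 12.05, 12.48, 11.88 and 12.80 on the SA arrays, against 12.17, 11.67, 12.17, 12.56 and 12.89 on the S arrays, a difference of 0.01 ± 0.24. The test of the difference between these changes gave 0.58 ± 0.34 with an adjusted p of 0.775, so that a difference between the sub-groups was not shown. Klf1, which drives the adult beta globin gene, had 0.01 ± 0.31 in susceptible and -0.21 ± 0.31 in resistant rats. Hemgn, a nuclear protein of blood progenitors and erythroblasts, had -0.22 ± 0.32 and -0.35 ± 0.32.

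**Figure D2:**
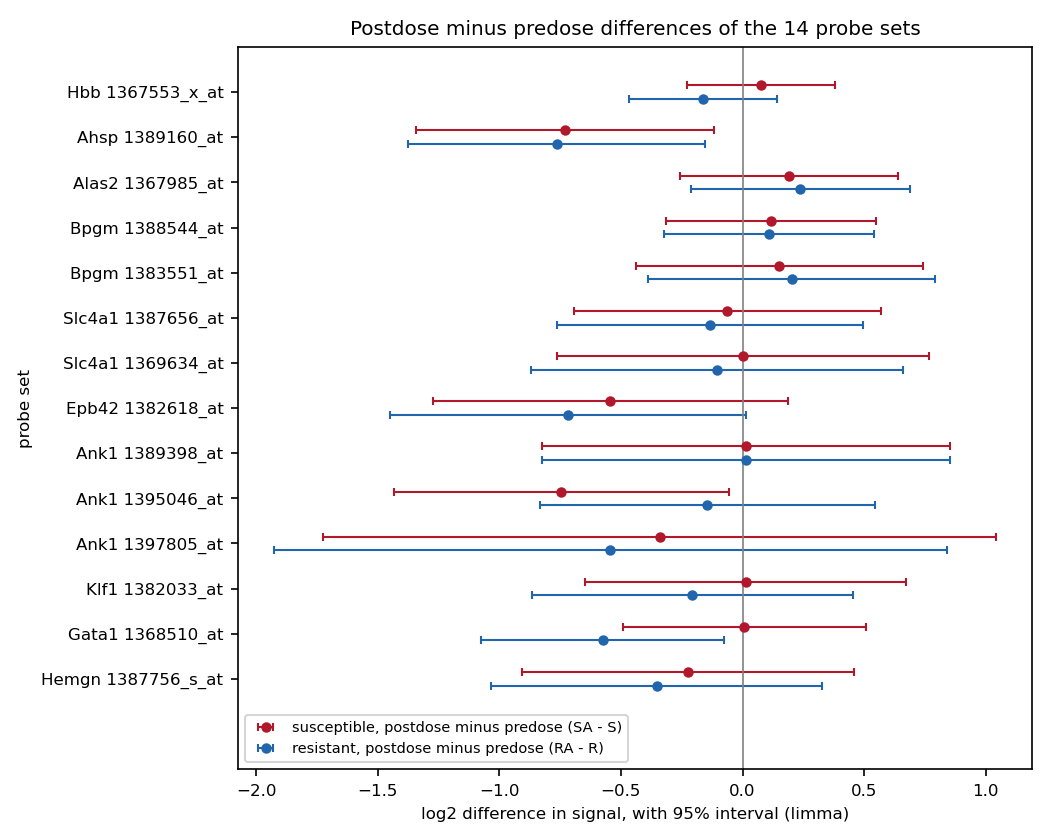
Log2 difference, postdose minus predose, of each of the 14 probe sets with its 95% interval from limma, susceptible rats (SA - S) above resistant rats (RA - R) in each row. Ahsp lies to the left of 0 in both sub-groups (-0.73 and -0.76), and no probe set passed the threshold after adjustment over 30747 probe sets.

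No difference between the sub-groups was called in these genes at either time. The comparisons share arrays, the S arrays with the change in susceptible rats and so on, so that they are not independent. Before dosing (S against R, 10 arrays), 0 of 14 were called in either direction, where 0.00329% of all 30416 probe sets tested were called. The predose log2 differences ran from -0.20 to 0.25 with a median of 0.09, beside -0.02 over all probe sets, and the lowest adjusted p was 1.0. After dosing (SA against RA), 0 of 14 were called, where 0.143% of all were called. Of the postdose differences 13 of 14 were above 0, from -0.35 to 0.39 with a median of 0.16, and the lowest adjusted p was 0.663. The genes moved together, as given next, so that these 14 signs are not independent. The change after APAP did not differ detectably between the sub-groups for any of the 14 (0 called, where 0% of all probe sets were called in either direction), with a lowest adjusted p of 0.775. The intervals leave room for sizeable differences in change, up to 2.16 log2 units at the dimmest Ank1 probe set.

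The spread between rats of 1 group was large and was shared by 9 of the 10 genes. The mean log2 signal of the 10 genes, with the brightest probe set of each, was 15.43, 15.40, 14.90, 15.08 and 15.81 on the SA arrays, against 15.25, 14.91, 15.16, 15.79 and 16.06 on the S arrays. It was 15.35, 14.56, 14.64, 15.47 and 15.65 on the RA arrays, against 15.30, 15.40, 15.28, 15.37 and 15.60 on the R arrays. From the lowest array, RA replicate 2, to the highest, S replicate 5, this mean spanned 1.50 log2 units, or 2.83-fold. The SDs were 0.35 in SA, 0.47 in S, 0.50 in RA and 0.13 in R, so that the R arrays lay closest together. No group difference in the mean stood out of this spread, with group means of 15.32 in SA, 15.44 in S, 15.14 in RA and 15.39 in R.

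Measured as deviations from the group means over the 20 arrays, 9 genes rose and fell together. Among the 36 pairs of these 9 genes, Pearson's r ran from 0.56 to 0.98 with a median of 0.83, and Spearman's rho from 0.59 to 0.97 with a median of 0.88. Without S replicate 5 and RA replicate 2, the 2 arrays whose mean signal of the 10 genes deviated most from their groups, r ran from 0.472 to 0.985 over 18 arrays with a median of 0.83. The closest pairs were Alas2 with Bpgm (r = 0.98), Klf1 with Hemgn (0.98) and Slc4a1 with Klf1 (0.96). Gata1 was the loosest of the 9, with r = 0.56 against Ank1 and 0.66 against Ahsp. The values of 1 array share its RNA, its hybridization and its scaling, the 20 arrays come from 10 rats, and these correlations are descriptions.

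Hbb, followed by 1 probe set (1367553_x_at), did not move with the other 9. Its 9 pairs had r from -0.27 to 0.20 with a median of -0.11, and rho from -0.28 to 0.10. On S replicate 5, where the other 9 genes were above their group means by 0.19 to 1.32 log2 units, Hbb was the lowest of the S arrays at 17.95. On RA replicate 3, where the other 9 were below their group means by 0.32 to 0.67 log2 units, Hbb was the lowest of the RA arrays at 17.67, so that it was not simply opposite to them. Its within-group SD was 0.22, near the median of 0.23 over 15257 probe sets with a mean signal of at least 1000, and 46.1% of those had a lower SD. The brightest probe sets of the other 9 genes had SDs from 0.32 to 0.65, higher than 81.0% to 98.8% of these probe sets. Hbb lay nearer the top of the intensity range than most genes, and the part of signal compression in its small spread was not tested. Whether 1367553_x_at also detects transcripts of other beta globin genes was not tested either.

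**Figure D3:**
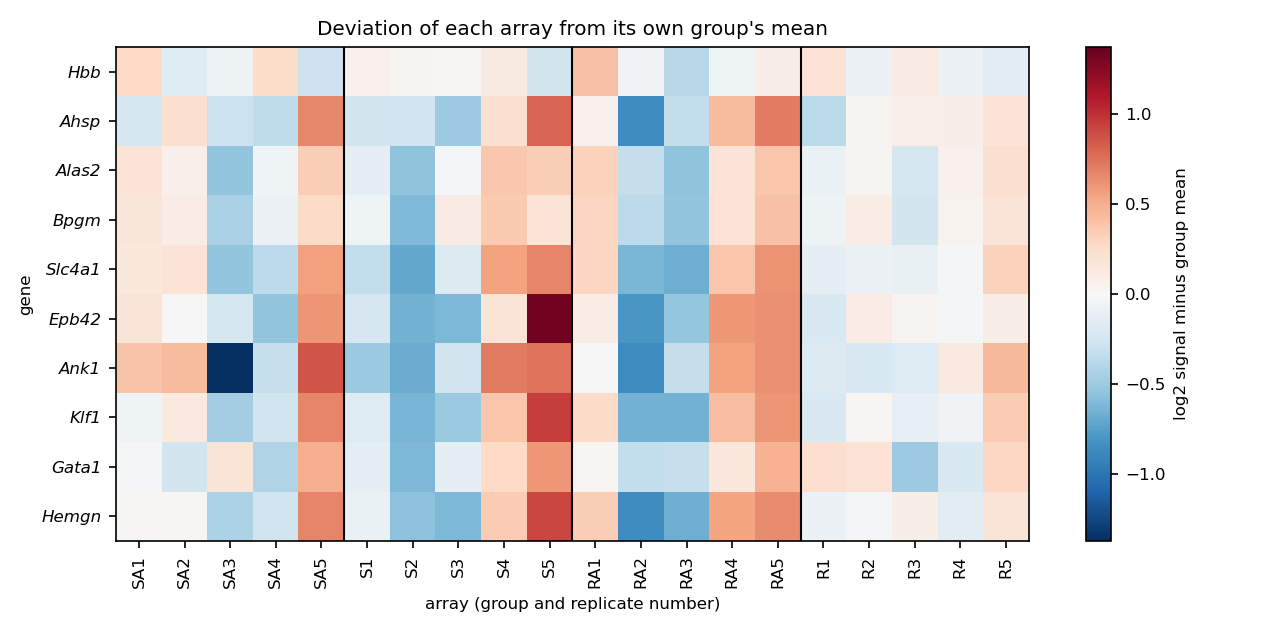
Deviation of each array's log2 signal from the mean of its own group, for 10 genes (rows) on 20 arrays (columns, by group and replicate number), red above and blue below the mean. Columns such as S5 and SA5 are red and RA2 and RA3 blue for nearly every gene, whereas the Hbb row stays pale and follows its own order.

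The probe sets most like the mean of the 10 genes were close to it on nearly all arrays. For r with this mean, here and in the next paragraph, each gene was first z-scored (brought to the same mean and SD) over the 20 arrays. The 10 genes then had equal weight, unlike in the mean log2 signal given above. Among 15257 probe sets with a mean signal of at least 1000, 234 had r of at least 0.8 with this mean over the 20 arrays. At least 0.9 was reached by 118, and 8 had -0.8 or less. The counts of 234 and 118 include probe sets of the 10 genes themselves, which are part of the mean. The 10 closest outside the list had r from 0.97 to 0.98. They were Dapk2, a death-associated protein kinase, Tfdp2, a partner of E2F factors, Tmcc2, Ranbp10, the RNA-binding protein gene Rbm38, Car2 for carbonic anhydrase II, the deacetylase gene Sirt2, Prdx2 for an abundant peroxidase of red cells, the poly(A) polymerase gene Tent5c and the ubiquitin-conjugating enzyme gene Ube2c. Their postdose differences ran from -0.33 to 0.14 in susceptible and from -0.37 to 0.13 in resistant rats, and none was called. A list of 13 enzyme and maturation genes of red cells, with Bnip3l as its brightest, had a median signal that moved with the mean of the 10 genes at r = 0.97. For the median of 12 genes of the red cell membrane r was 0.74, of 5 other globin genes 0.44 and of 10 genes of heme synthesis 0.34. It was 0.26 for 10 erythroid regulators and 0.09 for 4 erythroid receptors. A list median follows the genes of middle brightness, such as Hbe2 among the 5 globin genes on most arrays. These r values therefore do not describe every gene of a list.

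Markers of other cells were set against the same mean. As list medians over the 20 arrays, again as deviations from the group means, r was 0.13 for platelets and -0.15 for T cells and for NK cells. It was -0.28 for B cells, -0.30 for neutrophils and -0.51 for monocytes. These values too rest on the genes of middle brightness in each list. Between the times, however, white cell markers did change. All 8 probe sets of NK cell and cytotoxic genes were called higher in both sub-groups, 4 of 9 neutrophil probe sets in susceptible and 3 of 9 in resistant rats were called higher, and 3 of 8 monocyte and 2 of 5 B cell probe sets were called lower in susceptible rats. Of 16 T cell probe sets 1 was called lower in each sub-group. Over all probe sets 6.66% were called in susceptible and 5.11% in resistant rats, and the T cell count is near these shares. In susceptible rats 3 of the 8 monocyte probe sets had differences above 0, among them the brightest, Lyz2 (0.13). The neutrophil list's median log2 signal ran from 15.61 to 16.40 on the SA arrays against 13.73 to 14.69 on the S arrays. It ran from 15.38 to 15.71 on the RA arrays against 13.96 to 14.50 on the R arrays. This median follows the genes of middle brightness and overstates the change of the list. Over the 9 neutrophil probe sets the median log2 difference was 0.55 in susceptible and 0.36 in resistant rats. In resistant rats 3 of the 9 had differences below 0, among them Camp at -0.89. The platelet list ran from 17.56 to 18.08 on the SA arrays against 17.33 to 17.74 on the S arrays, and from 17.38 to 17.74 on the RA arrays against 17.51 to 17.73 on the R arrays, with 0 of 9 called. Every signal is a share of the RNA on its array, and the part of these white cell changes in the erythroid values was not tested.

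Other erythroid genes were followed through 6 lists of 54 genes and 77 probe sets for globins, heme synthesis, membrane, regulators, receptors and enzymes. In susceptible rats 2 probe sets were called higher and 1 lower, and in resistant rats 2 higher and 1 lower, both a smaller share than the 6.66% and 5.11% over all probe sets. The brightest genes of these lists, the globin gene Hba-a3, Fech for the last enzyme of heme synthesis, Epb41 for membrane protein 4.1, the transferrin receptor gene Tfrc, the mitophagy gene Bnip3l and the regulator Nfe2, included 1 that was called. Nfe2 was called higher in susceptible rats, as given further on, and the other 5 had log2 differences from -0.25 to 0.10 in susceptible and from 0.00 to 0.29 in resistant rats. The median log2 difference was -0.04 in susceptible and -0.05 in resistant rats. Between the sub-groups, 0 of the 75 probe sets tested before dosing and 0 of the 77 tested after dosing were called.

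Myb was called lower in both sub-groups. Myb encodes a transcription factor of blood progenitors that is shut down as erythroid and other blood cells mature, and it is also active in other immature and lymphoid cells. Its log2 signals were 11.42, 12.60, 12.05, 12.09 and 11.97 on the SA arrays, against 13.24, 13.15, 13.28, 13.40 and 12.99 on the S arrays. They were 12.07, 12.16, 12.85, 12.10 and 12.24 on the RA arrays, against 12.94, 13.41, 13.49, 13.54 and 13.71 on the R arrays. Every postdose array was below every predose array of its sub-group. Myb fell by 1.18 ± 0.20 on the log2 scale in susceptible rats (adjusted p = 0.0014) and by 1.14 ± 0.20 in resistant rats (adjusted p = 0.0022).

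The other calls were made in 1 sub-group each. Xk, a membrane protein that carries the Kx blood group antigen, rose by 1.11 in susceptible rats (adjusted p = 0.0053) and had a difference of 0.44 in resistant rats. Nfe2, a factor of the globin locus and of platelets, rose by 0.49 in susceptible rats (adjusted p = 0.040) and had 0.07 in resistant rats. Abcb10, a mitochondrial transporter used in heme synthesis, rose by 0.47 at 1 of its 2 probe sets in resistant rats (adjusted p = 0.015) and had 0.34 there in susceptible rats (adjusted p = 0.076). Hbe2, an embryonic type of beta globin gene, rose by 1.63 in resistant rats (adjusted p = 0.034) and had -0.66 in susceptible rats. None of these genes was called in the difference between the changes of the sub-groups, so that none was shown to change more in 1 of them. Hbz and Hbg1, embryonic types of globin gene, averaged 6.18 and 6.91, within the range of the highest trp control.

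Since the genes shared so much of their spread, each was also set against Alas2 on the same array, a step chosen after the values had been seen and given as a description. The log2 ratio of Ahsp to Alas2 was -2.36, -1.79, -1.69, -2.22 and -1.61 on the SA arrays, against -1.13, -0.73, -1.50, -1.16 and -0.55 on the S arrays. It was -2.24, -2.50, -1.76, -1.72 and -1.66 on the RA arrays, against -1.26, -0.99, -0.68, -0.95 and -1.01 on the R arrays. No postdose array overlapped a predose array of its sub-group. The mean ratio was -1.94 ± 0.33 in SA and -1.02 ± 0.37 in S (SD), a difference of -0.92, and -1.98 ± 0.37 in RA and -0.98 ± 0.20 in R, a difference of -1.0.

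Over all probe sets, the same ratio to Alas2 was lower without overlap for 1.31% in susceptible and 2.04% in resistant rats. Among the 13 other probe sets of the 10 genes this held for Ahsp alone in susceptible rats. In resistant rats it held for 7, those of Ahsp, Epb42, Gata1, Klf1 and Hemgn and the brighter ones of Slc4a1 and Bpgm. All of these share the denominator. Alas2 had the highest log2 difference among the probe sets of the 10 genes in both sub-groups. All 13 ratio differences therefore had to be negative in each sub-group. For this reason the counts among the 13 cannot be judged against the shares over all probe sets. With each of the 9 other genes as the denominator, the Ahsp ratio was lower without overlap for 4 in susceptible rats (Alas2, Slc4a1, Klf1 and Hemgn) and for 5 in resistant rats (Alas2, Slc4a1, Klf1, Bpgm and Ank1). Against Epb42 the difference was only -0.19 and -0.05, since Epb42 itself had log2 differences near those of Ahsp. Among the brightest probe sets of the 10 genes, Ahsp had the lowest log2 difference in both sub-groups. All 9 ratio differences therefore had to be negative. The share over all probe sets was obtained for Alas2 as the denominator alone, so that the counts of 4 and 5 cannot be judged. A ratio within an array shows unequal change and not which gene changed.

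**Figure D4:**
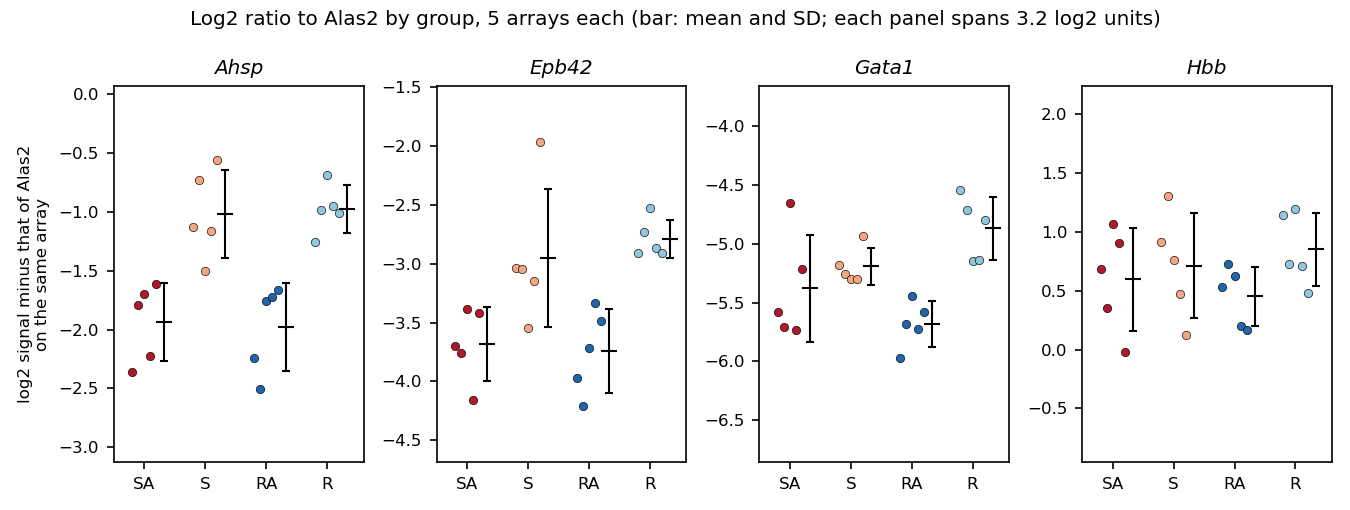
Log2 ratio of Ahsp, Epb42, Gata1 and Hbb to Alas2 on each array, by group in the order SA, S, RA, R, with points for arrays and bars for the mean and SD of 5 arrays. The Ahsp points of SA and RA lie below all points of S and R, whereas those of Hbb overlap between all 4 groups.

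A fit with the mean log2 signal of the 10 genes as a covariate, also chosen after the values had been seen, called 1 probe set in each sub-group. Ahsp was lower in susceptible rats, with a log2 difference of -0.61 ± 0.14 (adjusted p = 0.013), where 6.96% of all probe sets were called. In resistant rats Ahsp had -0.49 ± 0.14 (adjusted p = 0.056). Alas2 was higher in resistant rats, with 0.44 ± 0.10 (adjusted p = 0.018), where 5.7% of all probe sets were called, and it had 0.28 ± 0.10 in susceptible rats (adjusted p = 0.111). The covariate is the mean of the tested genes themselves, so that the adjusted differences of their brightest probe sets must cancel out within a sub-group. A lower Ahsp thus forces other genes higher, and the values of Ahsp and Alas2 are not separate results. The difference in change was not called for either of them (adjusted p = 0.939 for Ahsp and 0.846 for Alas2).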

How the data were processed

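Blood RNA of 10 rats, drawn before and after APAP, was measured on 20 arrays. The authors deposited 1 linear intensity per probe set and array. The methods state handling in ArrayTrack and a median of 1000 per chip, but the deposited medians lie between 187 and 223, and the software that summarised the probes is not given in the sources used here. Arrays carry no read depth, so that their number limits the precision.

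The 57 control probe sets were removed, each array was multiplied by a factor that put the median of the other 31042 at 1000, and log2 was taken of these deposited intensities. A probe set entered a fit if at least 1 of its arrays reached 100. Groups were compared with limma 3.58.1 (lmFit and eBayes) in R 4.3.3 with a Benjamini-Hochberg adjusted p under 0.05, over all probe sets tested. All 20 arrays entered the fits, except the predose comparison of the sub-groups, which used 10. The main fits held group alone, so that predose and postdose arrays of the same rats were treated as independent. The fit was tested on simulated data. Replicates are separate rats within a group.

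The text names every probe set of the 10 genes, in each other list the brightest gene and up to 4 called probe sets, chosen by mean signal, and the 10 probe sets most like the mean of the 10 genes. NK, neutrophil, monocyte, T cell and B cell lists are given mostly as counts. The members and lists were chosen with earlier results of these data known. Alternatives covered the normalization, the filter, an added constant, 1 probe set per gene, the arrays in the fit, the methods' test, a replicate block and leaving out each array. Sequences are from RefSeq (GRCr8), and figures were drawn with matplotlib 3.10.9.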

Additional observations from a re-analysis of the deposited data

Results flagged for a closer look

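In 3 of the 60 groups of 5 arrays checked, 1 array lay far from the other 4, with a gap over 0.71 of the range of the group. Chance flags about 1 in 20 groups, which is the 5% found here. Hbb on S replicate 5 was 17.95, below the next lowest of 18.23. Slc4a1 at its brighter probe set on R replicate 5 was 16.98, above the next of 16.65. Ahsp on R replicate 1 was 16.01, below the next of 16.41, and this is the array that the 2 highest RA arrays exceeded.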

How the results depend on the processing

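No probe set of the 10 genes was called in any comparison with another normalization, filter, added constant, choice of arrays or test, nor without any 1 array. The median log2 difference of the 14 probe sets moved by less than the spread between arrays everywhere. Leaving out 1 array gave medians from -0.19 to 0.13 in susceptible and from -0.29 to -0.03 in resistant rats. Among 1940 values of single probe sets under the alternatives, 197 had the other sign, all of them for reported differences no larger than 0.34 that were not called. With the mean of the 10 genes as covariate, added after seeing the data, 1 probe set was called lower in susceptible rats and 1 higher in resistant rats, as given above. The Ahsp to Alas2 ratio kept its groups apart with quantile normalization and with 50 added, and leaving out 1 array gave differences from -1.04 to -0.81 in susceptible and from -1.08 to -0.87 in resistant rats.

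The counts over all probe sets depended more on the setting. In resistant rats 1570 became 961 with 1 probe set per gene, 955 with only the arrays compared, 954 by the methods' test and 729 by it after Benjamini-Hochberg, and 967 to 1660 without 1 array (967 without R replicate 3 and 1046 without RA replicate 2). In susceptible rats 2048 became 869 with only the arrays compared, 1012 by the methods' test and 578 by it after Benjamini-Hochberg. Without 1 array the count was 1332 to 2270 (1332 without SA replicate 3). Other settings gave up to 2099 in resistant rats, with quantile normalization, and up to 2693 in susceptible rats. With 1 probe set per gene fewer probe sets were tested, so that this count is not on the same base. Before dosing, S against R had 1 call, 2 with 50 added, 0 with 1 probe set per gene or all 20 arrays, 370 by the methods' test and 0 by it after adjustment, 0 with the covariate, and 0 to 2 without 1 array. SA against RA had 44 calls, 73 with quantile normalization, 559 by the methods' test and 0 by it after adjustment, 83 with the covariate, and 7 to 89 without 1 array. The difference in change had 0 calls, and 0 to 2 without 1 array. The causes were not tested.

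Replicate numbers do not tie arrays of 1 rat together in the labels. Same-numbered arrays deviated with r from -0.164 to 0.196, 6 of 10 were above 0.1, and 5 of 10 arrays matched their own number best. With a replicate block, 970 probe sets were called in resistant and 1290 in susceptible rats, and 0 of the 14.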

Other observations

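The array numbered 5 had the highest mean of the 10 erythroid genes in all 4 groups, at 15.81 in SA, 16.06 in S, 15.65 in RA and 15.60 in R. For 7 of the 14 probe sets replicate 5 was the highest in every group, which held for 128 of 15257 probe sets with a mean signal of at least 1000 (0.839%). Since the erythroid genes other than Hbb moved together, these 7 probe sets are not separate observations. The labels do not say whether a replicate number marks the same rat, day or position in handling, and resistant and susceptible rats with the same number are different rats.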
